A study of Mus musculus with 6 samples.

Results

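The genes described here are *Cblb* and 9 others grouped with it as regulators, mostly negative, of kinase and cytokine receptor signalling. The 10 are *Cblb*, *Cbl*, *Cbll1*, *Itch*, *Sh2b3*, *Ptpn6*, *Ptpn11*, *Inpp5d*, *Socs1* and *Cish*. They were taken by symbol from the 16579 genes of the deposited table, and each symbol matched 1 row. All 10 passed the filter on low counts that left 12256 genes for testing. The members were selected on a readout of these libraries: *Cblb* was chosen by its log2 fold change and adjusted p between the genotypes, and the others were grouped with it by known function, with that comparison known. The genotype values of the 10 genes are therefore given as a description, with standard errors (SE) and no p-value. Where members past a threshold are counted, the count is a description too.

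Bone marrow MKs were isolated by FACS from mice aged 3 months, and their RNA was sequenced in 6 libraries. The 3 control libraries were from Becn1f/f mice, in which both copies of *Becn1* carry loxP sites. The other 3 were labelled Becn1f/f;Pf4-iCre, and those mice carry the same floxed alleles plus a Cre recombinase driven by *Pf4* (platelet factor 4) sequence, which acts in the megakaryocytic lineage. They are called the Cre-labelled libraries below. The labels number the libraries but do not say whether each came from its own mouse, so a p-value measures the spread between these libraries, which may be technical. The gate of the RNA-seq sort is not given in the sources used here.

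Each library held 16467560 to 17156728 estimated read counts. The targeted gene, *Becn1*, was at 127.5, 108.8 and 118.7 CPM (read counts scaled by TMM to a common library size) in control libraries 1, 2 and 3 and at 106.4, 104 and 109.8 in Cre-labelled libraries 1, 2 and 3. Cre-labelled library 3 lay above control library 2, so the genotypes overlapped. The log2 fold change was -0.15 (SE 0.12, with an adjusted p = 0.94 in the quasi-likelihood test of edgeR). The targeted gene was thus hardly lower in the libraries labelled Becn1f/f;Pf4-iCre, and every direction below rests on those labels. By RT-qPCR, the paper reported less *Becn1* mRNA in marrow cells sorted as MKs and platelets, and by western blotting no detectable Becn1 in platelets. Those are other measurements than these counts. The label of the cells was checked against 16 genes of MKs and platelets. All 16 took 0.233% to 0.486% of the counts, most of it from *Thbs1*. *Itga2b* was at 148 to 187 CPM in control and 142 to 176 CPM in Cre-labelled libraries. *Itgb3* was at 79.8 to 143 CPM in control and 115 to 135 CPM in Cre-labelled libraries. Without *Thbs1*, *Itga2b* and *Itgb3*, which other marrow cells also express, the remaining 13 genes took 0.0034% to 0.0069% of the counts. *Pf4* itself was at 3.76 to 6.73 CPM in control and 2.08 to 3.06 CPM in Cre-labelled libraries. Apart from the 3 genes left out, MK transcripts were thus scarce in every library. The levels below are those of the sorted material as a whole.

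Cytokine receptors of blood cells signal through JAK kinases and STAT factors, and several growth factor receptors are kinases themselves. The signal is ended in different ways. Cbl proteins are RING-type ubiquitin ligases that bind phosphorylated receptors and kinases and send them for degradation, SH2 adaptors such as Lnk block JAK2 downstream of cytokine receptors, phosphatases strip phosphate from proteins or from inositol lipids, and SOCS-box proteins are induced by the signal and shut it off in a feedback loop.

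*Cblb*, the Cbl ligase best known for raising the activation threshold of lymphocytes, was higher in the Cre-labelled libraries. It had 904, 820 and 848 counts in control libraries 1, 2 and 3 and 1775, 1953 and 1642 in Cre-labelled libraries 1, 2 and 3. After scaling these were 56.7, 47.2 and 47.9 CPM against 106.4, 117.8 and 97.5 CPM. The lowest Cre-labelled library lay well above the highest control library. Means were 50.6 ± 5.31 and 107 ± 10.2 CPM (SD, n = 3 each). The difference was 1.08 on the log2 scale (SE 0.14), or 2.12-fold (1.93 to 2.33 within 1 SE). *Cblb* was also steady within a genotype, with a coefficient of variation of 10.5% in control and 9.48% in Cre-labelled libraries. In such bulk samples a change in the number of cells that hold a transcript and a change in its amount per cell cannot be told apart.

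*Cbl*, the closest relative of *Cblb*, encodes the ligase that acts on Kit and Csf1r. Its level was 519, 468 and 595 CPM in control libraries 1, 2 and 3 and 560.3, 698 and 620.4 CPM in Cre-labelled libraries 1, 2 and 3. Control library 3 lay above Cre-labelled library 1, so the genotypes overlapped. The log2 fold change was 0.25 (SE 0.15). Of the 10608 distinct 50-base stretches in GENCODE M21 transcripts of *Cblb*, 0 occur in those of *Cbl*. Scaled for transcript length, *Cbl* stood at 5.14 to 6.90 times the FPKM level of *Cblb* in the control libraries and at 3.05 to 3.69 times in the Cre-labelled ones. *Cblb* thus made up 12.7% to 16.3% of the FPKM of both genes in control and 21.3% to 24.7% in Cre-labelled libraries. *Cbl* remained the more abundant of both in all 6 libraries. The third family gene, *Cblc*, which is epithelial, had counts in 1 of the 6 libraries and was not tested.

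**Figure D1:**
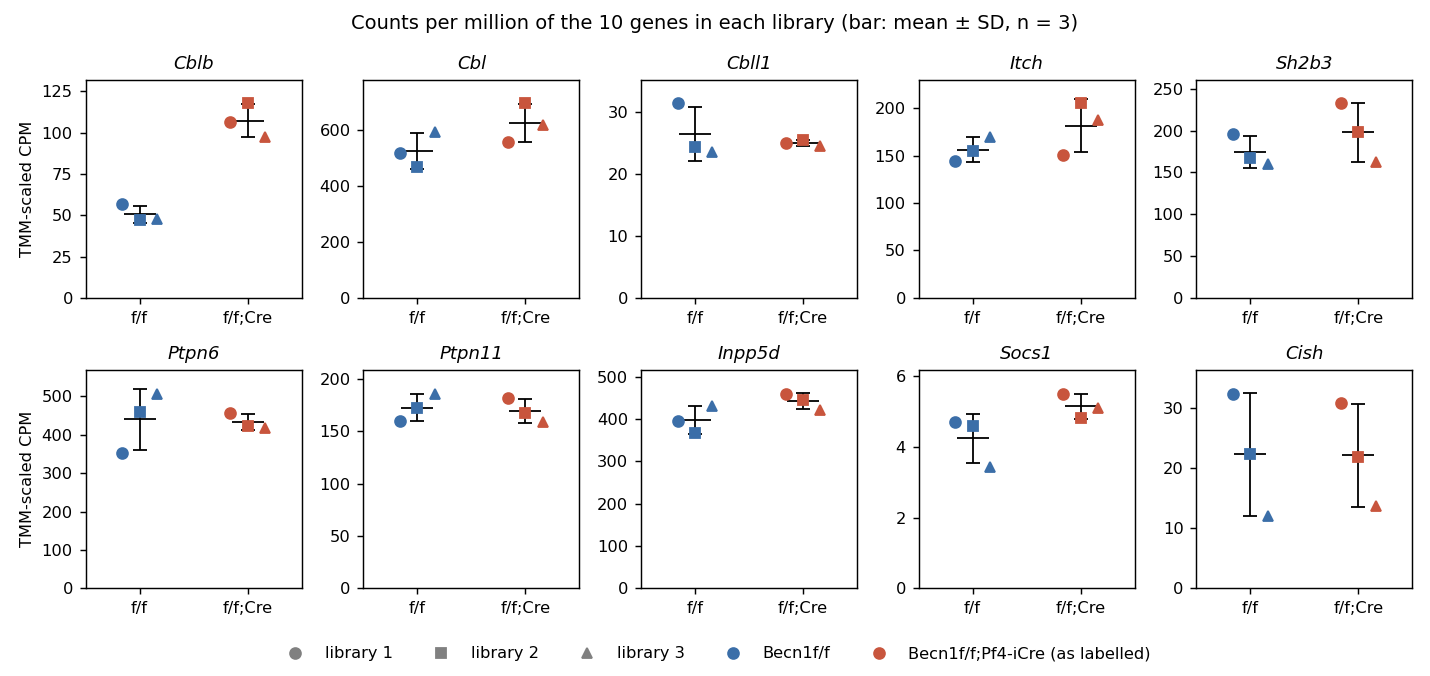
TMM-scaled CPM (y axis, from 0) of the 10 genes in control (blue) and Cre-labelled (red) libraries, with circles, squares and triangles for libraries 1, 2 and 3 and the mean ± SD as black bars (n = 3). *Cblb* is separated, from 47.2 to 56.7 against 97.5 to 117.8 CPM, *Socs1* is separated by a small margin, and the other 8 genes overlap.

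The window around the start of *Cblb* is shown because this gene differs most of the 10. It is the RefSeq promoter window of 250 bases before to 50 bases after the annotated start, on the plus strand of GRCm38.p6 at chr16:52031299-52031598. It holds 17 CpG dinucleotides, against a median of 7 over the 32851 windows of that table, and no TTCNNNGAA motif, the palindrome that STAT factors bind, which is described further with *Cish*.
Cblb: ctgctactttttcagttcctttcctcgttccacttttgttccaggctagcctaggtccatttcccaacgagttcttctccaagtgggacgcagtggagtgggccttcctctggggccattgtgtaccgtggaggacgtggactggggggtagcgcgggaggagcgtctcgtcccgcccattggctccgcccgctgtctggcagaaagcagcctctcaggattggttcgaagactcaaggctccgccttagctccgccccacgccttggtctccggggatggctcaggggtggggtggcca

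The other ubiquitin ligases of the list differed little. *Cbll1* encodes Hakai, a RING ligase named for its likeness to Cbl, and it stood at 31.5, 24.4 and 23.5 CPM in control libraries 1, 2 and 3 and at 25.1, 25.4 and 24.5 CPM in Cre-labelled libraries 1, 2 and 3. Control library 1 alone was high, and without it the log2 fold change went from -0.08 (SE 0.15) to 0.07. *Itch*, a HECT-type ligase whose loss in mice causes itching and inflammation, stood at 144, 154.7 and 169.8 CPM in control libraries and at 150.5, 205 and 188 CPM in Cre-labelled libraries. Cre-labelled library 1 fell within the control range. Its log2 fold change was 0.21 (SE 0.15), and it moved to 0.09 when trends with GC content and transcript length were taken out.

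*Sh2b3* encodes Lnk, the adaptor that restrains JAK2 signalling in blood cells. Its level was 196, 167 and 160.5 CPM in control libraries 1, 2 and 3 and 233, 198 and 162 CPM in Cre-labelled libraries 1, 2 and 3. In both genotypes library 1 was the highest and library 3 the lowest, and the ranges overlapped. The log2 fold change was 0.18 (SE 0.16) and ranged from 0.05 to 0.31 over the fits that leave out 1 library each.

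Of the 3 phosphatase genes, *Ptpn6* and *Inpp5d* were the most abundant of the 10 by FPKM, and *Inpp5d* and *Ptpn11* varied least within a genotype. *Ptpn6* encodes SHP-1, which dephosphorylates receptors and JAK kinases in blood cells. It stood at 353, 460.4 and 508 CPM in control libraries 1, 2 and 3 and at 457, 423 and 418 CPM in Cre-labelled libraries 1, 2 and 3. All 3 Cre-labelled libraries lay inside the control range, and the log2 fold change was -0.03 (SE 0.15). *Ptpn11* encodes SHP-2, which mostly promotes Ras signalling and limits some STAT responses, and it ranged from 159.4 to 186 CPM in control and from 159.1 to 181 CPM in Cre-labelled libraries (log2 fold change -0.03, SE 0.13). *Inpp5d* encodes SHIP1, the lipid phosphatase that removes the 5-phosphate from the product of PI3-kinase. It stood at 394, 368 and 432 CPM in control libraries and at 460.4, 446 and 421 CPM in Cre-labelled libraries, and control library 3 exceeded Cre-labelled library 3. Its log2 fold change was 0.15 (SE 0.13). The within-genotype SD of log2 CPM, pooled over both genotypes, was 0.09 for *Inpp5d* and 0.10 for *Ptpn11*, at percentiles 7.56 and 10.1 of all tested genes.

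*Socs1*, which encodes an inhibitor that binds JAK kinases directly, was the least abundant of the 10. It had 75, 80 and 61 counts in control libraries 1, 2 and 3 and 92, 80 and 86 in Cre-labelled libraries 1, 2 and 3. In CPM these were 4.70, 4.60 and 3.44 against 5.51, 4.82 and 5.11. The genotypes did not overlap, but by a margin of 4.70 to 4.82 CPM, and the log2 fold change of 0.28 had an SE of 0.21. With 61 to 92 counts per library, the precision of this value is limited.

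*Cish*, the feedback inhibitor that STAT5 induces, differed far more between libraries of a genotype than between genotypes. It had 516, 387 and 214 counts in control libraries 1, 2 and 3 and 514, 361 and 231 in Cre-labelled libraries 1, 2 and 3. In CPM these were 32.4, 22.3 and 12.1 against 30.8, 21.8 and 13.7. The highest library was thus 2.68 times the lowest in control and 2.25 times the lowest in Cre-labelled libraries, while same-numbered libraries of both genotypes lay close together. The genotype means were 22.2 ± 10.1 and 22.1 ± 8.55 CPM (SD, n = 3 each). They differed by -0.01 on the log2 scale (SE 0.33). This is the widest SE of the 10 genes, and leaving out single libraries moved the value between -0.33 and 0.37. The within-genotype SD of *Cish*, 0.65 on the log2 scale, was at percentile 97.0 of all tested genes, whose median was 0.21. The order of the libraries by level was the same in both genotypes for *Cish* and *Sh2b3* and for no other of the 10, and it was the same for 15.3% of all tested genes.

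The windows at the starts of *Cish* and of *Socs3*, another SOCS gene that is induced by STAT factors and followed the same pattern, are shown for the motif TTCNNNGAA. Capitals mark each match, and since the motif is a palindrome, 1 strand covers both. *Cish* lies on the plus strand of GRCm38.p6 at chr9:107296409-107296708, and *Socs3* on the minus strand at chr11:117969317-117969616. The *Cish* window holds 2 matches, TTCCTGGAA and TTCTTGGAA, which begin at bases 1 and 12 of the annotated transcript. The *Socs3* window holds 1, TTCTTAGAA, which begins 154 bases before the start. At least 1 match was found in 8.3% of all windows of this length and at least 2 in 0.457%. Of the 9 members of the list with a RefSeq window, *Cish* was the only 1 with a match. These are matches of letters only, and binding was not measured.
Cish: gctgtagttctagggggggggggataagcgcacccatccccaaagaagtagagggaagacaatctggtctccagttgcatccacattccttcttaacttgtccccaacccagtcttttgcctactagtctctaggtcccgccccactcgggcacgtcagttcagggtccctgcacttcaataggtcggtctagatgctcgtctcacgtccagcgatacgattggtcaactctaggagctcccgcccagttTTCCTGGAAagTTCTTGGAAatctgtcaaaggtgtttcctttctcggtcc
Socs3: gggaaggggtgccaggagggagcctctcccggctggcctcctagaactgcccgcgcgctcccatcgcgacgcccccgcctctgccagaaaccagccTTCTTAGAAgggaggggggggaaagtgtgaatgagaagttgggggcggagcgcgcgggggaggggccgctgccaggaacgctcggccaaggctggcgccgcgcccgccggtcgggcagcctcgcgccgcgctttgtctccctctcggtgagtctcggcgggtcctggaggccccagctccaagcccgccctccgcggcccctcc

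As a group, 6 of the 10 genes had a positive and 4 a negative log2 fold change, where 45.5% of all tested genes were positive. The median was 0.17, against -0.02 over all tested genes. Without *Cblb* the other 9 ranged from -0.08 to 0.28. A gene was called a DEG when it differed 1.5-fold or more, higher or lower, with *P* under 0.05 before adjustment in edgeR. *Cblb* was the 1 member past these thresholds, where 2.3% of all tested genes passed them. It was also the 1 member with an adjusted p under 0.05, where 0.0408% of all tested genes had one. The genotypes did not overlap for 2 members, *Cblb* and *Socs1*, both higher in the Cre-labelled libraries, and 10.6% of all tested genes did not overlap in either direction. Since the list was made with this comparison known, nothing is read from these counts. Exons of *Cbll1*, *Sh2b3*, *Ptpn6* and *Cish* overlap annotated genes on the opposite strand in GENCODE M21, over 17.6% of the exon bases of *Cbll1*, 2.06% of those of *Sh2b3*, 6.96% of those of *Ptpn6*, and 4.07% and 7.46% of those of *Cish*. Whether the counting used strand is not given in the sources used here, so their counts may include reads of those genes.

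Levels of different genes were compared in FPKM, which is scaled for transcript length. In control libraries the order was *Ptpn6* at 232 ± 48.5, *Inpp5d* at 87.5 ± 8.76, *Cbl* at 48.3 ± 6.74 and *Sh2b3* at 43.9 ± 3.51 FPKM (SD, n = 3 each). Below these came *Ptpn11* at 32.9 ± 3.56, *Itch* at 32.1 ± 3.64, *Cish* at 8.30 ± 3.57, *Cblb* at 8.27 ± 0.552 and *Socs1* at 4.66 ± 0.633 FPKM (SD, n = 3 each), with *Cbll1* between the last pair at 6.42 to 8.03 FPKM. *Cbl* and *Sh2b3* overlapped, as did *Ptpn11* and *Itch*, and *Cish*, *Cblb* and *Cbll1* overlapped in turn. The other neighbours did not overlap. In the Cre-labelled libraries *Cblb* stood at 17.3 ± 1.76 FPKM (SD, n = 3), above *Cish* and below *Ptpn11* with no overlap. Among the tested genes its mean FPKM moved from percentile 40.1 to percentile 59.3. *Ptpn6* was at percentile 97.1 in control and 96.9 in Cre-labelled libraries.

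**Figure D2:**
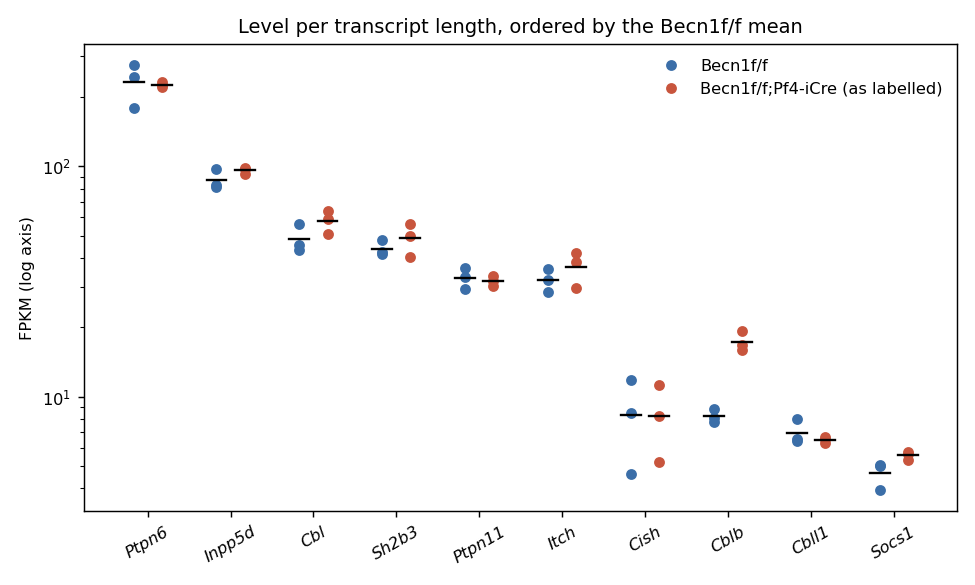
FPKM (log y axis) of the 10 genes in each control (blue) and Cre-labelled (red) library, with means as black bars (n = 3), ordered by the control mean. *Cblb* lies level with *Cish* and *Cbll1* in control libraries, at 7.81 to 8.88 FPKM, and above both in Cre-labelled libraries, at 15.96 to 19.33 FPKM.

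Further genes of the same signalling were counted in 5 lists with 87 genes, of which 85 were tested and *Cblc* and *Ghr* were too low. Of the 85, 1 rose and none fell past the DEG thresholds in the edgeR test, where 1.36% of all tested genes were higher and 0.938% lower. DESeq2 gave the same counts. At an unadjusted *P* under 0.05 without the fold threshold, 8 of the 85 were higher and 1 was lower, where 3.92% of all tested genes were higher, 2.39% lower and 6.31% either. None of the 85 had an adjusted p under 0.05. The gene that rose was *Flt3*, a receptor tyrosine kinase of early progenitors and dendritic cells that Cbl ligases act on. It stood at 74.4, 60.8 and 78.1 CPM in control libraries 1, 2 and 3 and at 118, 131 and 107.0 CPM in Cre-labelled libraries 1, 2 and 3. The lowest Cre-labelled library was above all control libraries. The log2 fold change was 0.74 (SE 0.14), with an adjusted p = 0.11 in edgeR.

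The ubiquitin ligases and their partners had 14 tested genes, 7 higher and 7 lower, with a median difference of 0.01. No DEG was among them in the edgeR test, 1 of 14 had an unadjusted *P* under 0.05 (6.31% of all tested genes), and none passed in DESeq2. The largest difference was that of *Ubash3a*, which encodes a Cbl-binding protein of T cells, at -0.39 (SE 0.18). The 10 other SOCS and PIAS genes had a median of 0.03, with 6 higher and 4 lower. None was a DEG in edgeR or DESeq2 or had an unadjusted *P* under 0.05. *Socs2*, a STAT5-induced gene, had the largest difference at -0.70 (SE 0.48), but control library 1 was at 4.26 CPM and the other 5 libraries at 0.844 to 1.74 CPM. *Socs3*, the feedback inhibitor of IL-6-type receptors, is named after its values were seen. It stood at 136, 100.4 and 63.4 CPM in control libraries 1, 2 and 3 and at 168, 119.7 and 70.3 CPM in Cre-labelled libraries 1, 2 and 3. As for *Cish*, library 1 was the highest and library 3 the lowest in both genotypes.

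The 16 other phosphatases had a median log2 fold change of 0.16, with 13 higher and 3 lower, against -0.02 over all tested genes. None was a DEG in edgeR or DESeq2, and 2 higher and 1 lower gene of the 16 had an unadjusted *P* under 0.05, against 3.92% and 2.39% of all tested genes. *Dusp1*, a phosphatase of MAP kinases that is induced early by stress and glucocorticoids, differed most at 0.54 (SE 0.24). It stood at 601, 945 and 1145 CPM in control libraries 1, 2 and 3 and at 1126, 1092 and 1694 CPM in Cre-labelled libraries 1, 2 and 3, and the groups overlapped. The 14 inhibitory adaptors had a median of 0.02, with 7 higher and 7 lower. None was a DEG in edgeR or DESeq2, and 2 of 14, both higher, had an unadjusted *P* under 0.05, against 3.92%. *Spred1*, an inhibitor of Ras signalling, differed most at 0.44 (SE 0.16).

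Among the 31 tested receptors and kinases on which these proteins act, 18 were higher and 13 lower, with a median log2 fold change of 0.01. *Lyn*, a Src-family kinase, and *Gab2*, a docking protein of SHP-2, are named after their values were seen. *Lyn* was at 336 to 338 CPM in control and 430.3 to 462 CPM in Cre-labelled libraries, and *Gab2* was at 108.6 to 142 and 164.7 to 192 CPM. Their log2 fold changes were 0.41 (SE 0.12, adjusted p = 0.45 in edgeR) and 0.51 (SE 0.14, adjusted p = 0.39). Over the 5 lists, 7 of 85 genes were higher in the Cre-labelled libraries with no overlap, against 5.42% of all tested genes, and 1 was lower, *Sh2b1*, against 5.18%.

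**Figure D3:**
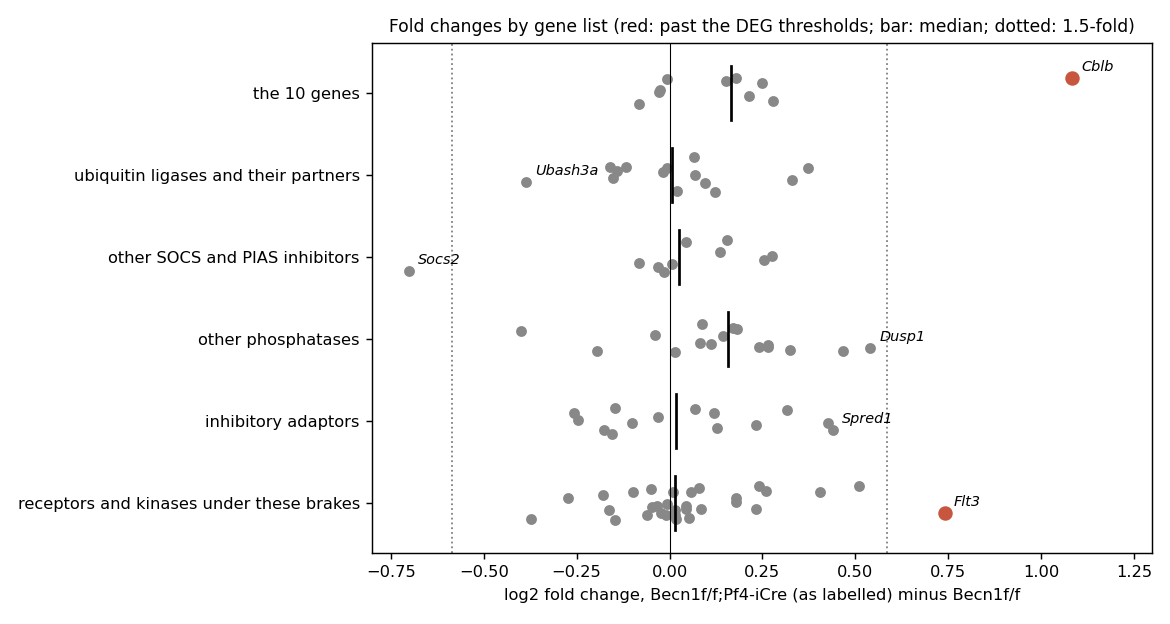
Log2 fold change (x axis, Cre-labelled minus control) of each tested gene (points) of the 10-gene list and of 5 lists of further signalling genes, with list medians as black bars, the 1.5-fold limits dotted and DEGs in red. *Cblb* at 1.08 and *Flt3* at 0.74 are the only genes in red, and the list medians lie between 0.01 and 0.17.

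Of the other marrow cells, monocyte and macrophage marker sums were higher in the Cre-labelled libraries, as *Cblb* was, and erythroid sums were lower. The summed CPM of 5 monocyte markers was 2978 to 3346 in control and 4045 to 4150 in Cre-labelled libraries. All 5 had a positive log2 fold change, with *Cx3cr1* a DEG. Most of the monocyte sum came from *F13a1*, at 1601 to 1891 CPM in control and 2219 to 2361 CPM in Cre-labelled libraries. Of the 5, *Ly6c2* alone overlapped between the genotypes, at a log2 fold change of 0.09. The 15 macrophage markers summed to 796 to 838 CPM in control and 857 to 1052 CPM in Cre-labelled libraries, with 11 of 12 tested markers higher in the Cre-labelled libraries and 4 DEGs, *Mrc1*, *Cd163*, *C1qc* and *Siglec1*. Most of this sum came from *Csf1r*, *Adgre1* and *Cd68*, which each overlapped between the genotypes. Their log2 fold changes were 0.26, 0.001 and 0.14. The 4 DEGs lay far lower, with *Mrc1* the highest at up to 27.02 CPM. *Timd4*, *Spic* and *Marco* were too low for testing. All 11 tested erythroid markers had a negative log2 fold change and 7 were DEGs, with sums of 252 to 367 CPM in control and 173 to 233 CPM in Cre-labelled libraries. Over all tested genes, 45.5% had a positive log2 fold change, and 1.36% were DEGs that were higher and 0.938% DEGs that were lower. The summed neutrophil, B cell, T and NK cell, mast cell and MK markers overlapped between the genotypes. Within these lists, log2 fold changes were negative for 13 of 14 tested neutrophil, 7 of 8 B cell, 7 of 8 mast cell, basophil and eosinophil, and 9 of 14 MK markers. The DEGs among them were all lower, *Mmp9* of neutrophils at -0.59 (SE 0.22), *Igll1* of B cell precursors at -0.85 (SE 0.30) and *Pf4* at -1.01 (SE 0.29), and *Pf4* alone of these did not overlap. T and NK cell markers, which belong to the cells where *Cblb* is best studied, summed to 63.8 to 77.1 CPM in control and 52.0 to 66.6 CPM in Cre-labelled libraries, with 2 of 9 higher. The part of these marker signals in the *Cblb* difference was not tested.

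**Figure D4:**
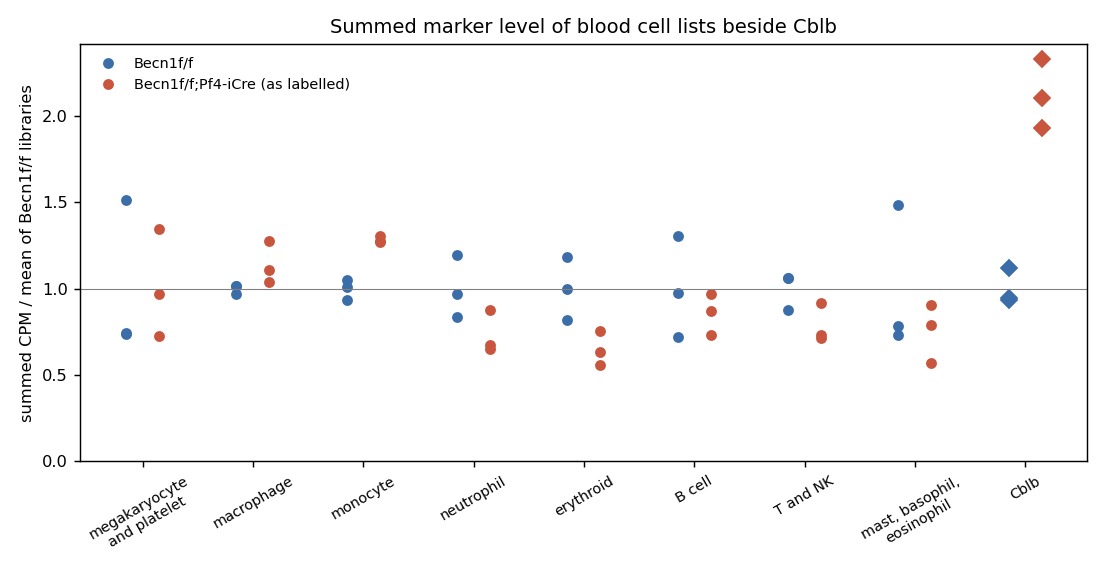
Summed CPM of 8 marker lists in each library, divided by the mean of the control libraries (y axis, from 0), with *Cblb* as diamonds; control libraries are blue and Cre-labelled libraries red. The monocyte and macrophage sums lie above all control libraries in the Cre-labelled libraries and the erythroid sum lies below, with *Cblb* separated by the widest gap.

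The genes whose pattern was most like *Cblb* were found by the root mean square distance between log2 CPM profiles over the 6 libraries, each centred on its own mean. The closest of the 12256 tested genes were *Il13ra1*, a receptor subunit for IL-4 and IL-13, at a distance of 0.12, and *Abca9*, a lipid transporter of the ABC family, at 0.13. *Kcne3*, a potassium channel subunit, *Stard9*, a kinesin, and *Tnfsfm13*, a gene that overlaps its neighbouring TNF ligand genes and whose counts are therefore uncertain, followed at 0.15, 0.16 and 0.17. *Il13ra1* stood at 34.7 to 43.2 CPM in control and 65.1 to 90.8 CPM in Cre-labelled libraries. None of the other 9 members was among these closest genes. Of the 12256 ranks, *Socs1* was at 694, *Cbl* at 826, *Sh2b3* at 1397, *Itch* at 1521 and *Inpp5d* at 1525. *Ptpn11* was at rank 5320, *Cbll1* at 5532, *Ptpn6* at 6502 and *Cish* at 10242.

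The same measure, applied to *Cish* after its values were seen, gave *Adora2b*, an adenosine receptor, at 0.08 and *Rrad*, a small GTPase, at 0.12. *Gm41408*, *Ifrd1* and *Gpr132* were next, and *Socs3* was at rank 6. *Adora2b* stood at 46.6, 29.9 and 15.6 CPM in control libraries 1, 2 and 3 and at 41.1, 27.4 and 19.9 CPM in Cre-labelled libraries 1, 2 and 3. These genes were chosen for this likeness, so their shared order is a description.

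**Figure D5:**
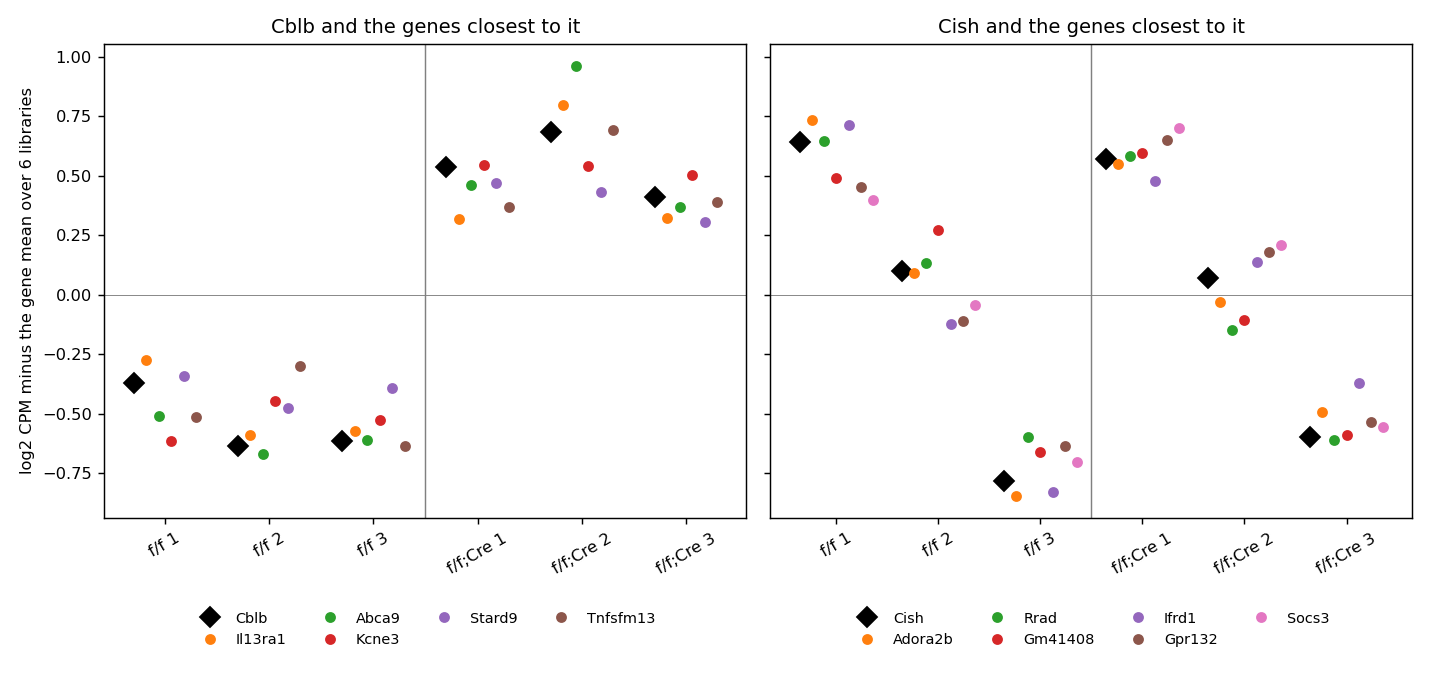
Log2 CPM minus each gene's mean over 6 libraries (y axis) for *Cblb* and its 5 closest genes (left) and for *Cish*, its 5 closest genes and *Socs3* (right), by library (x axis, control left and Cre-labelled right of the grey line). The *Cblb* group parts by genotype, whereas the *Cish* group is high in library 1 and low in library 3 of both genotypes. The closest genes were picked for these patterns.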

How the data were processed

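The deposited table gives, for each of 16579 genes, estimated counts that the authors did not normalize and FPKM values that the authors scaled for transcript length and library size. Reads were filtered by the authors and mapped with HISAT, and the submitters' processing notes also name Bowtie2 and the builds GRCm39 and mm39. The counting tool is not given in the sources used here. The table has 16 other columns of per-sample values, which were not used. Of these, 4 are from a library that matches none of the samples, and the authors' group means include it.

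Estimated counts were rounded (10.3% to 11.3% of genes per library were not whole), and genes too low for edgeR's filterByExpr were removed. TMM scaling and the quasi-likelihood test of edgeR 4.0.16 (R 4.3.3) compared the genotypes over 12256 genes with Benjamini-Hochberg adjustment. SE was taken from the quasi-likelihood F (the log2 fold change over its square root). Libraries within a genotype correlated at Pearson's r of 0.98 to 0.99 across genes and differed by more than sampling noise. Counting error covers read sampling only.

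The members and lists were chosen with earlier results of these data known. Named genes were the 10 members, *Becn1*, list genes past the DEG thresholds or else the largest difference of a list, the 5 genes most like *Cblb*, and markers. *Socs3*, *Lyn*, *Gab2*, *Sh2b1* and the genes most like *Cish* were added after their values were seen. Alternatives were DESeq2 1.42.0, other scalings and filters, limma 3.58.1, a replicate block and leaving out each library. The steps were tested on simulated data. Promoter windows are from RefSeq (GRCm38.p6), matched by symbol for 9 of the 10 genes, with *Itch* not matched. The values of 1 gene of the receptor list are not reported here.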

Additional observations from a re-analysis of the deposited data

How the results depend on the processing

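The log2 fold change of *Cblb* was positive in all 17 alternative fits. Its fold ranged from 1.98 to 2.13 over 11 other settings and from 2.02 to 2.27 with each library left out, and the number of members past the DEG thresholds was 1 in each of them. Its adjusted p was less stable. It was under 0.05 in 10 of the 11 other settings, but in only 2 of the 6 fits that left out a library. *Cblb* was chosen by its fold change and adjusted p in these same libraries. These counts are therefore a description and no support for the difference. Each other member moved by less than its spread between libraries, though *Cbll1*, *Ptpn6*, *Ptpn11* and *Cish*, all near 0, changed sign in some fits. The median log2 fold change over all tested genes was -0.02 in the main fit. In the alternatives it lay between -0.033 (upper-quartile scaling) and -0.006 (without control library 1). Over 11953 genes, the log2 fold changes of the main fit correlated with transcript GC content at a Spearman's rho of -0.34. The rho was 0.03 after trends with GC content and transcript length were taken out. In that fit *Cblb* had a log2 fold change of 1.02, *Cbl* of 0.15 and *Socs1* of 0.39.

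Over all tested genes, 282 DEGs (167 higher, 115 lower) became 129 (91 and 38) with limma on log2(FPKM + 1), 137 (96 and 41) with a mean FPKM of at least 1, and 5 (5 and 0) at an adjusted p under 0.05. DESeq2 gave 71 genes at that adjusted threshold. Without each library in turn there were 225 to 410 DEGs, 133 to 267 higher and 92 to 208 lower, with 267 higher without control library 1 and 208 lower without control library 2. In the 5 lists, 1 to 3 genes were higher and 0 to 1 lower without each library. Without control library 3, *Dusp1*, *Gab2* and *Flt3* were higher and *Socs2* lower, and *Dusp1* joined *Flt3* without Cre-labelled library 1 or 2. The GC and length correction, added after seeing the data, gave 2 higher (*Flt3* and *Dusp1*), and an adjusted p under 0.05 gave 0. The cause was not tested.

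The libraries share replicate numbers, but deviations from the genotype means of same-numbered libraries correlated at 0.07, -0.27 and 0.19 across genes, so the numbers were not taken to pair them. With the replicate block, the log2 fold change of *Cblb* was 1.08 (SE 0.16, against 0.14 in the main fit). That of *Cish* was 0.02 (SE 0.17, against 0.33 in the main fit). In the fit with the block, 1 member passed the DEG thresholds, and there were 296 DEGs (180 higher, 116 lower). The block gave 19 genes with an adjusted p under 0.05 in place of 5. Not every library correlated best with its own number.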

Other observations

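*Thbs1*, the thrombospondin gene that made up most of the summed MK markers, is named after its values were seen. It stood at 4472, 2110 and 2004 CPM in control libraries 1, 2 and 3 and at 3951, 2775 and 2041 CPM in Cre-labelled libraries 1, 2 and 3. As for *Cish* and *Socs3*, library 1 was the highest and library 3 the lowest in both genotypes. Its log2 fold change between the genotypes was 0.03 (SE 0.31). The TMM factor was also lowest in library 1 of each genotype, at 0.967 in control and 0.973 in Cre-labelled libraries. The part of library make-up in the *Cish* pattern was not tested.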
